A study of Homo sapiens with 12 samples.

Results

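The genes described here are the upstream part of the type I interferon pathway: IFNAR1, IFNAR2, JAK1, TYK2, STAT2, IRF9, IRF1, IRF7 and USP18. They were chosen by symbol, as a list written with earlier results of these data known but with no cutoff on a measured value, and all 9 symbols were found among the 25370 genes of the count table. The data are RNA-seq counts from T47D, an estrogen receptor-positive line of luminal breast cancer cells. Cells were kept for 48 hours in medium with 5% charcoal-stripped serum and for 24 hours in medium without serum, and then received vehicle, 10 nM anastrozole, 0.1 nM E2 (17β-estradiol) or both agents at these concentrations, with 3 libraries in each of the 4 groups. GEO's sample labels give 12 hours of treatment and the study's methods give 24 hours. The design asks whether anastrozole, a nonsteroidal aromatase inhibitor, changes the same genes as E2, and whether the pair together differs from each agent alone.

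Type I interferons bind a receptor made of IFNAR1 and IFNAR2, whose cytoplasmic tails carry the kinases TYK2 and JAK1. The kinases phosphorylate STAT proteins, among them STAT2, which joins IRF9 in ISGF3, the complex that binds interferon-stimulated response elements and switches on the interferon-stimulated genes. IRF1 and IRF7 are transcription factors that extend the response, IRF7 by driving further interferon genes, and USP18 removes ISG15 from proteins and blocks JAK1 at IFNAR2. Several of these genes are themselves interferon-stimulated in many cell types, so the pathway can sustain its own components.

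The 12 libraries held 9914253 to 17009776 reads assigned to genes, which was 32.7% to 33.5% of the reads in each column of the table, and all 9 genes had more than 3 counts in every library. The labels name polyA RNA as the molecule and a kit for total RNA as the library preparation, and 58.6% to 59.9% of the reads fell in no annotated gene. The 9 luminal epithelial markers summed to 10100 to 11200 CPM in every library, and 1 of them fell with anastrozole, 5 with E2 and 0 with the combination, at an adjusted p under 0.05 and with 0 rising, where 6.53%, 21.5% and 8.39% of the genes that averaged 3 log2 CPM or more were called in either direction. Markers of leukocytes, fibroblasts, endothelium and basal epithelium, 14 in all, summed to 90.7 to 108 CPM, the largest single contribution being COL1A1, while PTPRC, CD3E, COL3A1, COL1A2, DCN, PECAM1, CDH5 and KRT5 had at most 3 counts in any library. Nothing in the labels says whether the 3 replicates of a group were separate cultures, so p-values measure the spread between these libraries, which may be technical. Anastrozole replicates a and c differed more than any other pair of replicates (chi-square per degree of freedom 4.62, against 1.27 to 2.56 for the other pairs).

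Per kilobase of the canonical transcript, the 9 genes spanned a wide range in vehicle-treated cells. JAK1 stood highest at 68.7 ± 2.38 (SD, n = 3) CPM (counts scaled to the library total) per kilobase, followed by IRF9 at 34.9 ± 1.02, STAT2 at 26.0 ± 0.616, IFNAR1 at 18.7 ± 0.296, TYK2 at 12.3 ± 0.311, IRF7 at 10.4 ± 0.731, USP18 at 7.66 ± 0.689, IRF1 at 2.37 ± 0.158 and IFNAR2 at 1.59 ± 0.0779. Neighbours in this order lay further apart than their SDs added together, and the order by mean was the same in all 4 groups. The IFNAR2 chain of the receptor was thus measured from few reads, 60 to 132 counts per library, against 3582 to 7447 for JAK1.

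**Figure D1:**
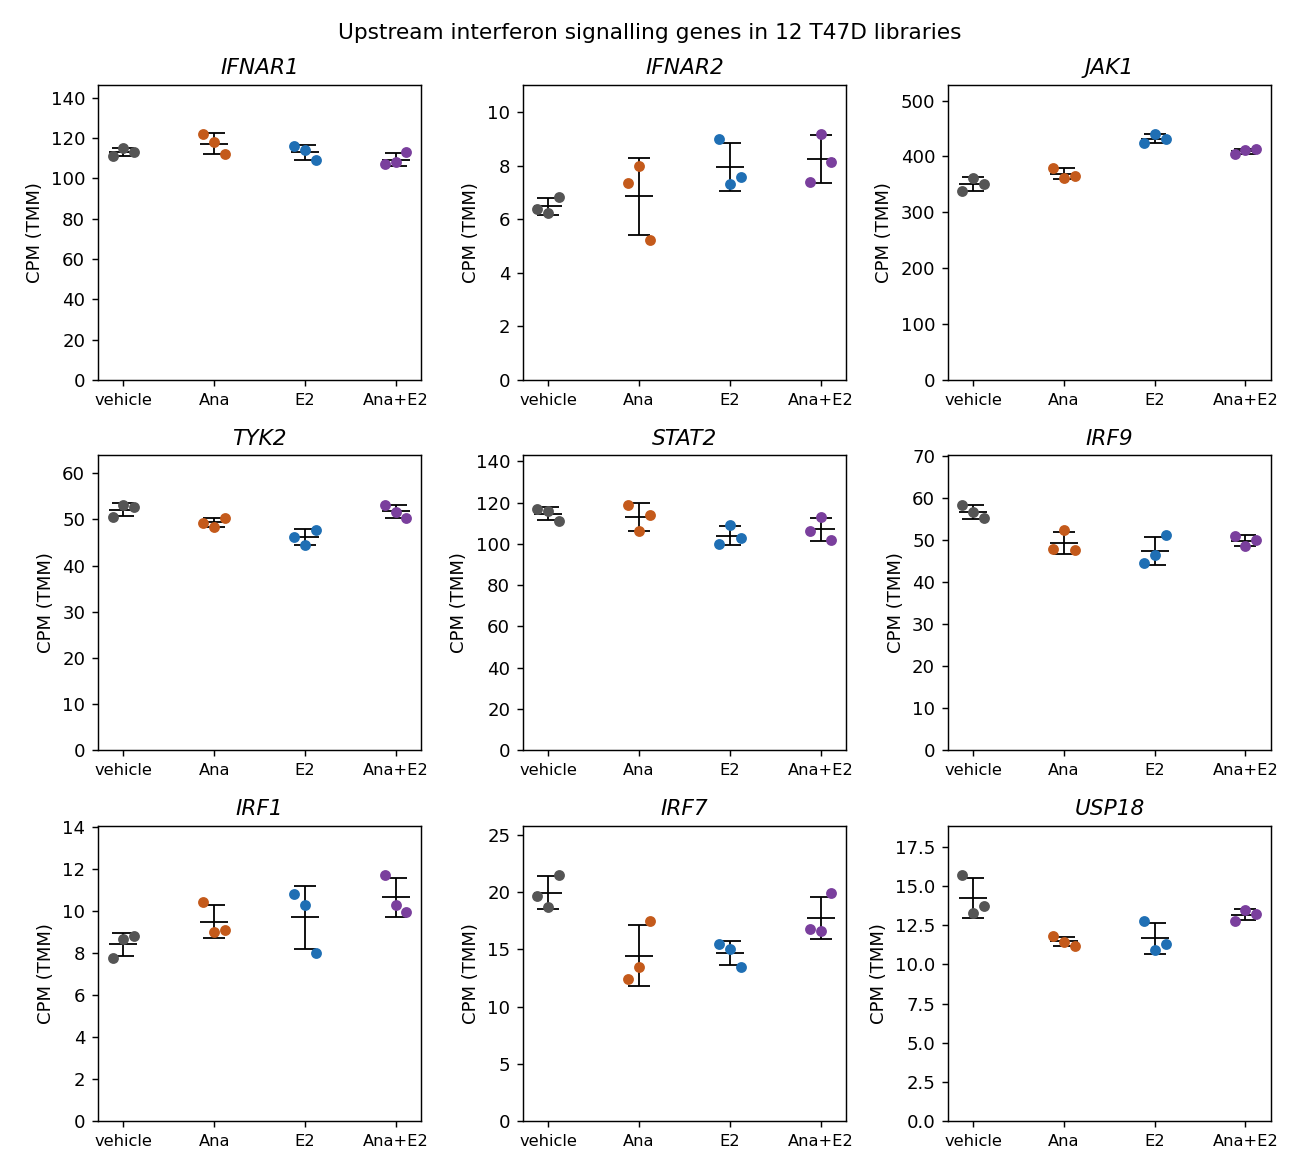
Level of each of the 9 genes in TMM-scaled CPM (y axis, from 0) in the 3 libraries of each group (points), with the mean and SD (bars); Ana is anastrozole. JAK1 lies higher in both groups with E2, IRF9 lies lower in all 3 treated groups, and IRF7 is lowest in the groups given anastrozole or E2 alone.

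Against vehicle, E2 moved more of these genes past the threshold than anastrozole did, and the changes were small. After E2, JAK1 rose and TYK2, STAT2, IRF9 and IRF7 fell, 5 of 9 genes at an adjusted p under 0.05, where 12.0% of all 21132 genes tested passed. After anastrozole, IRF9 and IRF7 fell, 2 of 9, where 3.67% of all genes passed. After anastrozole plus E2, JAK1 rose and IRF9 fell, 2 of 9, where 5.04% of all genes passed. For the 9 genes the median log2 change was -0.13 with E2, -0.02 with anastrozole and -0.05 with the combination, and that of all genes was 0.000 in each comparison. Calls are more frequent among abundant genes: of the 11013 genes that averaged 3 log2 CPM or more, 21.5%, 6.53% and 8.39% passed in these comparisons. The count over all genes moved when 1 library was left out. With anastrozole it was 776 with all libraries, 191 without vehicle replicate c, 246 without anastrozole replicate a, 287 without vehicle replicate a, 301 without anastrozole replicate b and 1651 without anastrozole replicate c. With E2 it was 2537, and 1741 to 2808 leaving out a library. With the combination it was 1065, and 682 to 964 leaving out a library, the lowest counts being without combination replicates b (682) and c (686). All 3 comparisons share the vehicle libraries. In bulk RNA, fewer cells of a type and less RNA per cell cannot be told apart. Adjusted p-values here and below come from the quasi-likelihood test of edgeR and were adjusted by the Benjamini-Hochberg method over all genes tested, log2 fold changes are given with their SE, and levels are TMM-scaled CPM of the 3 libraries a, b and c in that order.

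**Figure D2:**
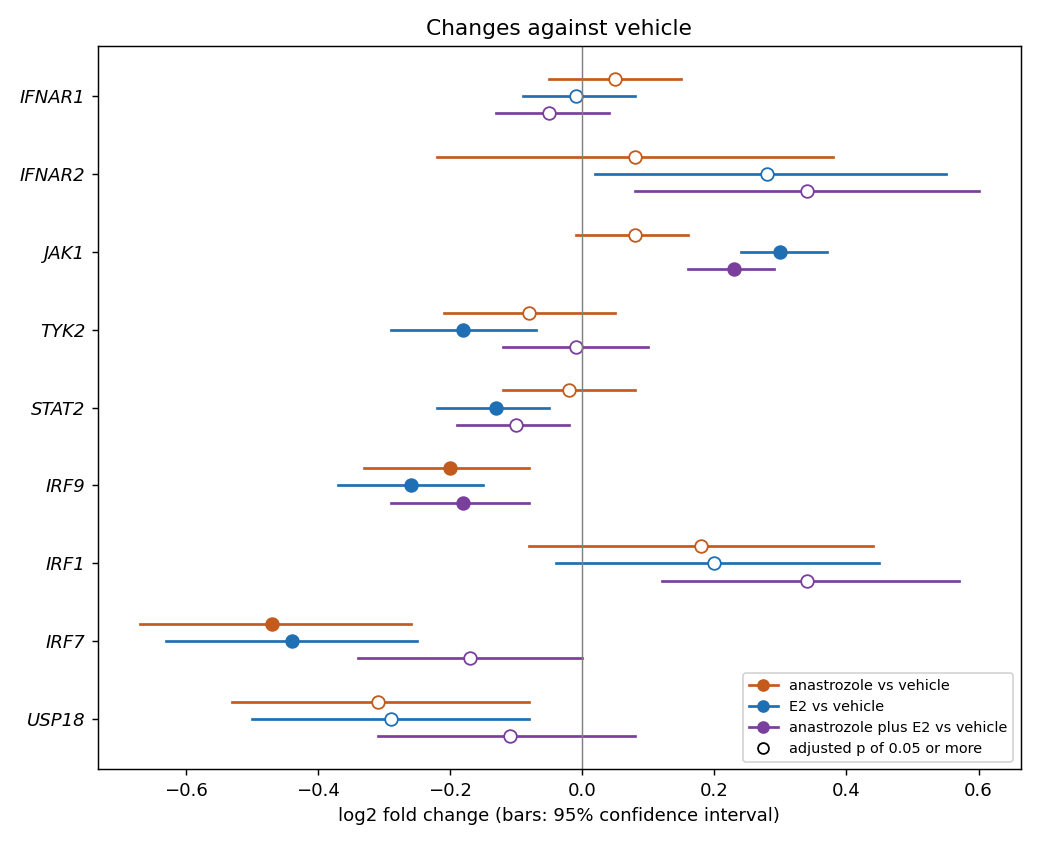
Log2 fold change against vehicle (x axis) with its 95% confidence interval for the 9 genes after anastrozole, E2 or both; filled points passed an adjusted p of 0.05. The interval of JAK1 lies above 0 with E2 and with the combination, and that of IRF9 lies below 0 in all 3 comparisons.

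The receptor genes did not pass the test in any of the 6 comparisons between groups, and at an unadjusted p under 0.05 IFNAR1 passed in 1 and IFNAR2 in 2 of them. In the combination against anastrozole, IFNAR1 was called in 1 of the 6 fits without 1 library (edgeR adjusted p = 0.045). IFNAR1 (ENSG00000142166; GRCh37 chr21:34696692-34732170, plus strand) encodes the signalling chain. Its level was 111, 115 and 113 CPM in vehicle, 122, 118 and 112 with anastrozole, 116, 114 and 109 with E2 and 107, 108 and 113 with the combination. The 4 groups overlapped throughout. The log2 fold change against vehicle was 0.05 ± 0.05 (95% confidence interval -0.05 to 0.15) with anastrozole, -0.01 ± 0.04 (-0.09 to 0.08) with E2 and -0.05 ± 0.04 (-0.13 to 0.04) with both. These intervals leave room for changes of at most 0.15 on the log2 scale in either direction.

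IFNAR2 (ENSG00000159110; chr21:34577587-34637980, plus strand) encodes the chain that binds interferon most tightly. It was at 6.39, 6.24 and 6.85 CPM in vehicle, 7.36, 7.98 and 5.24 with anastrozole, 8.99, 7.33 and 7.57 with E2 and 7.40, 9.19 and 8.15 with the combination. All 6 libraries with E2 lay above the 3 vehicle libraries, while the anastrozole libraries lay on both sides of them. The log2 fold change was 0.28 ± 0.14 with E2 (edgeR adjusted p = 0.18) and 0.34 ± 0.13 with the combination (edgeR adjusted p = 0.12), neither past the threshold, and 0.08 ± 0.15 with anastrozole. Of its exon bases, 14.7% also belong to the readthrough gene IFNAR2-IL10RB on the same strand and 13.0% to IL10RB-DT on the opposite strand, and how the counting treated strand is not given in the sources used here.

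The 2 kinases moved in opposite directions with E2. JAK1 (ENSG00000162434; chr1:65298906-65533437, minus strand), the kinase that sits on IFNAR2, was at 338, 362 and 351 CPM in vehicle and 424, 440 and 431 with E2. With the combination it was at 404, 411 and 413, and with anastrozole alone at 380, 362 and 365. The E2 libraries lay above all others, the combination libraries came next, and the anastrozole libraries lay just above vehicle, the nearest library of each rounding to 362 CPM. JAK1 rose by 0.30 ± 0.03 on the log2 scale with E2 (1.23-fold, edgeR adjusted p = 2e-18) and by 0.23 ± 0.03 with the combination (1.17-fold, edgeR adjusted p = 1.4e-08). With anastrozole alone the log2 fold change was 0.08 ± 0.04 (edgeR adjusted p = 0.42). The difference between the single agents was itself past the threshold, with JAK1 0.22 ± 0.04 lower on the log2 scale after anastrozole than after E2 (log2 fold change -0.22, edgeR adjusted p = 3.9e-06), the only one of the 9 genes called in that comparison, where 1.33% of all genes passed. JAK1 was called in the comparisons of E2 with vehicle, the combination with vehicle and anastrozole with E2 under each of the 11 other settings and in each of the 6 fits without 1 library.

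TYK2 (ENSG00000105397; chr19:10461209-10491284, minus strand), the kinase that sits on IFNAR1, was at 50.6, 53.2 and 52.6 CPM in vehicle, 49.3, 48.3 and 50.4 with anastrozole, 46.2, 44.5 and 47.8 with E2 and 53.2, 51.7 and 50.3 with the combination. The E2 libraries were the lowest and did not overlap any other group, and the combination libraries overlapped vehicle. TYK2 fell by 0.18 on the log2 scale with E2 (SE 0.06, edgeR adjusted p = 0.021), a call lost without vehicle replicate b, vehicle replicate c, E2 replicate a or E2 replicate b (adjusted p from 0.052 to 0.15). Its log2 difference from vehicle was -0.08 ± 0.07 with anastrozole and -0.01 ± 0.05 with the combination. With a smooth trend on transcript GC content removed from each library, the E2 change of TYK2 was -0.07 (adjusted p = 0.54). The call was lost as well with DESeq2 (adjusted p = 0.080), limma-voom (adjusted p = 0.051) and thinning of the counts (adjusted p = 0.10).

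Of the ISGF3 subunits IRF9 and STAT2, IRF9 fell with every treatment and STAT2 fell with E2. IRF9 (ENSG00000213928; chr14:24630443-24637252, plus strand), the DNA-binding subunit, was at 58.5, 56.7 and 55.2 CPM in vehicle, 48.0, 52.4 and 47.7 with anastrozole, 44.6, 46.5 and 51.2 with E2 and 51.1, 48.6 and 50.1 with the combination. All 9 treated libraries lay below all 3 vehicle libraries, and the treated groups overlapped each other. IRF9 fell by 0.20 on the log2 scale with anastrozole (SE 0.06, edgeR adjusted p = 0.048), by 0.26 with E2 (SE 0.06, edgeR adjusted p = 0.00013) and by 0.18 with the combination (SE 0.05, edgeR adjusted p = 0.019). The anastrozole value lost the call when any 1 of the 6 libraries was left out (adjusted p from 0.063 to 0.25), and the combination value lost it without vehicle replicate a, combination replicate b or combination replicate c (adjusted p from 0.082 to 0.16), while the E2 value kept it in all 6. The combination call of IRF9 was also lost with DESeq2 (adjusted p = 0.13), limma-voom (adjusted p = 0.077) and thinning to the smallest library total (adjusted p = 0.078). The anastrozole call of IRF9 was lost in 8 of the 11 other settings (adjusted p from 0.052 to 0.22), DESeq2, limma-voom and thinning among them, and the E2 call in 0 of them. Of the exon bases of IRF9, 23.9% also belong to a readthrough gene on the same strand and 8.05% to a noncoding gene on the opposite strand.

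STAT2 (ENSG00000170581; chr12:56735381-56753987, minus strand), the subunit that supplies the transactivation domain of ISGF3, was at 117, 116 and 111 CPM in vehicle and 119, 106 and 114 with anastrozole. It was at 100, 109 and 103 with E2 and 106, 113 and 102 with the combination. Only the E2 libraries lay wholly below vehicle. STAT2 fell by 0.13 on the log2 scale with E2 (SE 0.04, edgeR adjusted p = 0.020), a call that was lost without vehicle replicate a, E2 replicate a or E2 replicate c (adjusted p from 0.082 to 0.16). It was also lost with DESeq2 (adjusted p = 0.064), limma-voom (adjusted p = 0.084) and the GC trend removed (adjusted p = 0.065). Against vehicle STAT2 differed by -0.02 ± 0.05 with anastrozole (95% confidence interval -0.12 to 0.08) and -0.10 ± 0.04 with the combination (edgeR adjusted p = 0.19). Compared directly, STAT2 was at a log2 difference of 0.12 ± 0.05 after anastrozole against E2 (edgeR adjusted p = 0.26) and IRF9 at 0.06 ± 0.07 (edgeR adjusted p = 0.84), so neither was shown to differ between the agents.

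The 2 interferon regulatory factors IRF7 and IRF1 had values on opposite sides of vehicle. IRF7 (ENSG00000185507; chr11:612553-615983, minus strand) was at 19.7, 18.7 and 21.5 CPM in vehicle, 12.4, 13.5 and 17.5 with anastrozole, 15.5, 15.0 and 13.5 with E2 and 16.8, 16.6 and 19.9 with the combination. The libraries given 1 agent lay below vehicle, the anastrozole libraries being widely spread, and the combination libraries overlapped vehicle. IRF7 fell by 0.47 on the log2 scale with anastrozole (SE 0.10, 0.723-fold, edgeR adjusted p = 0.0011) and by 0.44 with E2 (SE 0.10, 0.736-fold, edgeR adjusted p = 0.00013), and the log2 fold change with the combination was -0.17 ± 0.09 (edgeR adjusted p = 0.33). The anastrozole call was lost without vehicle replicate c (adjusted p = 0.052) or anastrozole replicate a (adjusted p = 0.090). It was also lost with limma-voom, the transformation named in the study's methods (adjusted p = 0.15), and with the GC trend removed (log2 fold change -0.31, adjusted p = 0.058). The E2 call of IRF7 was kept under each of the 11 other settings and without each of the 6 libraries.

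IRF1 (ENSG00000125347; chr5:131776132-131844411, minus strand), a tumour suppressor that is induced by interferon gamma, was at 7.77, 8.67 and 8.79 CPM in vehicle, 10.4, 8.99 and 9.08 with anastrozole, 10.8, 10.3 and 7.98 with E2 and 11.7, 10.3 and 9.94 with the combination. The anastrozole and combination libraries lay above vehicle and 1 E2 library lay within it. None of these differences passed the threshold. Against vehicle the log2 difference was 0.18 ± 0.13 with anastrozole, 0.20 ± 0.12 with E2 and 0.34 ± 0.12 with the combination (edgeR adjusted p = 0.055, and 0.041 with the GC trend removed). Of its exon bases, 22.9% are shared with IRF1-AS1, which is transcribed from the other strand.

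USP18 (ENSG00000184979; chr22:18632885-18660164, plus strand), the deconjugating enzyme and inhibitor of the receptor, was at 15.7, 13.3 and 13.7 CPM in vehicle, 11.8, 11.4 and 11.2 with anastrozole, 12.8, 10.9 and 11.3 with E2 and 12.8, 13.5 and 13.2 with the combination. Both single-agent groups lay below vehicle and the combination overlapped it. The log2 fold change of -0.31 ± 0.12 with anastrozole (edgeR adjusted p = 0.12) and of -0.29 ± 0.11 with E2 (edgeR adjusted p = 0.058) did not pass, and that with the combination was -0.11 ± 0.10. With the GC trend removed the E2 value was -0.31 and passed (adjusted p = 0.046). USP18 has a near-identical copy, USP41, so its counts are uncertain to the extent that reads were split between the copies.

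The 250 bases before the start of transcription were read for JAK1, which rose with E2, for IRF9, which fell in each comparison with vehicle, and for IRF1, a factor known to be induced through a gamma-activated site. Sequences are from RefSeq (GRCh38.p14), which held 6 of the 9 genes, and are written 5′ to 3′ on the strand of the gene. The capitals mark a gamma-activated site, TTCNNNGAA, in IRF9 (chr14:24161015-24161264, plus strand; bases 63 to 55 before the start) and in IRF1 (chr5:132490774-132491023, minus strand; bases 124 to 116), and GGTCA, an arm of the palindromic estrogen response element, in JAK1 (chr1:65067747-65067996, minus strand; bases 73 to 69).
IRF9: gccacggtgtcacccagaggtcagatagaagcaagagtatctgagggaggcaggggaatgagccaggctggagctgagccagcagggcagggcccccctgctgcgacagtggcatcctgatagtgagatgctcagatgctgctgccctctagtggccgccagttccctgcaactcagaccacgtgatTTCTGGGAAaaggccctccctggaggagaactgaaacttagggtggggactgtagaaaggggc
IRF1: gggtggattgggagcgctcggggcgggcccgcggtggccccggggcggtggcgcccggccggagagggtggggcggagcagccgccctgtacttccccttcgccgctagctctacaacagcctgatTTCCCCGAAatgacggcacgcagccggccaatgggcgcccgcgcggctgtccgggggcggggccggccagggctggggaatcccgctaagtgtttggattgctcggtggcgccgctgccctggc
JAK1: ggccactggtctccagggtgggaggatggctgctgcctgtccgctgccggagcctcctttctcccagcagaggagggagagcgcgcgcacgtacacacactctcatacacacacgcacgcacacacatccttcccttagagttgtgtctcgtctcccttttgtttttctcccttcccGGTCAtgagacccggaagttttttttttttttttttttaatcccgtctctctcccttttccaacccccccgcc

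Over 35116 promoters of the same length, searched on both strands, 6.57% held TTCNNNGAA and 32.6% held GGTCA. The core of the interferon-stimulated response element, searched as GAAANNGAAA, was in 3.02% of promoters and in 0 of the 6 read here. The full palindrome GGTCANNNTGACC was in 0.0399% of promoters and in 0 of the 6. IRF9 also held GGTCA at bases 232 to 228 before the start. The promoters of IFNAR1, TYK2 and STAT2 held none of the 4 motifs in this window. A match describes the letters only and is not evidence that a factor binds there.

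When anastrozole was added to E2, 2 of the 9 genes rose. TYK2 was 0.17 ± 0.06 higher on the log2 scale with the combination than with E2 alone (edgeR adjusted p = 0.048) and IRF7 was 0.27 ± 0.09 higher (edgeR adjusted p = 0.036), with no overlap of the libraries in either gene, where 6.74% of all genes passed. Both calls were lost with limma-voom (adjusted p = 0.088 for TYK2 and 0.16 for IRF7), with all 12 libraries in the fit (0.093 and 0.071) and after thinning (0.20 and 0.21), that of TYK2 also with DESeq2 (0.13), and with the GC trend removed the differences were 0.07 and 0.12 (adjusted p = 0.77 and 0.76). The TYK2 call was lost without any 1 of the 6 libraries (adjusted p from 0.058 to 0.22), and the IRF7 call without E2 replicate b, E2 replicate c, combination replicate a or combination replicate c (adjusted p from 0.052 to 0.38). JAK1 was at a log2 difference of -0.08 ± 0.03 (edgeR adjusted p = 0.12). When E2 was added to anastrozole, JAK1 rose by 0.15 ± 0.04 (edgeR adjusted p = 0.024), the 1 gene of the 9 that passed, where 2.90% of all genes passed. That call was lost without anastrozole replicate b, combination replicate b or combination replicate c (adjusted p from 0.14 to 0.23), and with limma-voom (adjusted p = 0.086). IRF7 was at 0.30 ± 0.10 in the same comparison (edgeR adjusted p = 0.079, and 0.0014 without anastrozole replicate c, its highest anastrozole library), and USP18 at 0.19 ± 0.11 (edgeR adjusted p = 0.46).

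The interaction of the 2 agents, which is the anastrozole effect in the presence of E2 minus its effect without E2, passed for 5 of the 9 genes, where 10.9% of all genes passed, and 19.9% of those that averaged 3 log2 CPM or more. For IRF7 the anastrozole effect was -0.47 without E2 and 0.27 with it, and the interaction was 0.74 ± 0.13 on the log2 scale (edgeR adjusted p = 5.1e-06). For USP18 the effects were -0.31 and 0.18 and the interaction was 0.49 ± 0.15 (edgeR adjusted p = 0.017). IRF9, with effects of -0.20 and 0.08, had an interaction of 0.28 ± 0.08 (edgeR adjusted p = 0.015). TYK2, with effects of -0.08 and 0.17, had one of 0.24 ± 0.09 (edgeR adjusted p = 0.043). JAK1 alone was negative, with effects of 0.08 and -0.08 and an interaction of -0.15 ± 0.05 (edgeR adjusted p = 0.036). So in IRF7, USP18, IRF9 and TYK2 the levels with both agents lay above the sum of the separate log2 effects, and in JAK1 below it. STAT2 (0.05 ± 0.06), IRF1 (-0.04 ± 0.17), IFNAR1 (-0.09 ± 0.06) and IFNAR2 (-0.02 ± 0.19) did not pass. The interaction of IRF7 was called without each of the 12 libraries in turn, whereas those of JAK1 and of TYK2 were each lost in 8 of these 12 fits, that of IRF9 without vehicle replicate a or E2 replicate a (adjusted p = 0.056 and 0.062) and that of USP18 without vehicle replicate a or E2 replicate b (adjusted p = 0.098 and 0.065). With DESeq2 the interactions of TYK2 (adjusted p = 0.065) and USP18 (adjusted p = 0.053) were lost, and after thinning those of TYK2 (adjusted p = 0.094) and IRF9 (adjusted p = 0.089).

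Fold changes across the whole table moved with the GC content of the transcripts. Over the 11013 genes that averaged 3 log2 CPM or more, the rank correlation of the log2 fold change with exon GC content against vehicle was -0.53 for anastrozole, -0.55 for E2 and -0.03 for the combination, and it was 0.11 for anastrozole against E2, 0.69 for the combination against E2, 0.57 for the combination against anastrozole and 0.71 for the interaction. Replicates of 1 group differed along the same axis. The log2 difference between anastrozole replicates a and c had a rank correlation of -0.58 with GC content. For anastrozole b and c it was -0.43, for vehicle a and b 0.39 and for vehicle b and c -0.37. Other pairs were nearer 0, such as combination b and c (-0.027). Among the 9 genes, IRF7 had the highest GC content (67.2%, the 99th percentile of these genes) and TYK2 the next (59.9%, the 87th percentile). JAK1 (48.1%), USP18 (46.3%) and IRF9 (52.6%) lay between the 45th and the 65th percentile, and IFNAR1 had the lowest content (41.6%, the 25th percentile).

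With a smooth trend on GC content removed from each library, some calls among the 9 genes were kept and others were not. In E2 against vehicle, JAK1 (0.30, adjusted p = 5.6e-23), IRF9 (-0.22, adjusted p = 0.0015) and IRF7 (-0.28, adjusted p = 0.044) were still called, USP18 was called (-0.31, adjusted p = 0.046), and TYK2 (-0.07) and STAT2 (-0.11, adjusted p = 0.065) were not. In anastrozole against vehicle none of the 9 genes passed, IRF9 being at -0.17 (adjusted p = 0.083) and IRF7 at -0.31 (adjusted p = 0.058). In the combination against vehicle, JAK1 (0.23), IRF9 (-0.18, adjusted p = 0.014) and IRF1 (0.35, adjusted p = 0.041) passed. The interaction passed for JAK1 (-0.15, adjusted p = 0.030), IRF7 (0.43, adjusted p = 0.039) and USP18 (0.53, adjusted p = 0.021), and did not for IRF9 (0.21, adjusted p = 0.15) or TYK2 (0.05, adjusted p = 0.91).

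**Figure D3:**
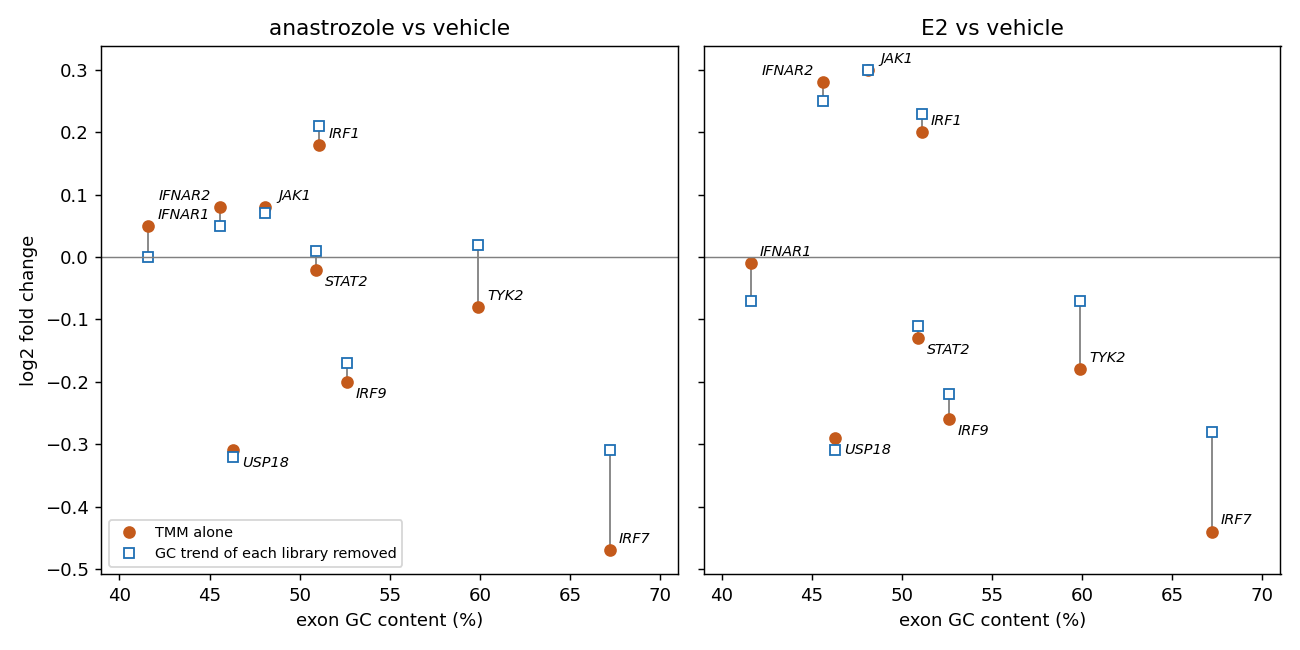
Log2 fold change against vehicle (y axis) by exon GC content in percent (x axis) for the 9 genes, after anastrozole (left) and E2 (right), as measured with TMM scaling alone (filled circles) and with the GC trend of each library removed (open squares). IRF7 and TYK2, the richest in GC, shifted most, and JAK1 and USP18 shifted little.

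The rest of the pathway was read from lists of its other components. Of 6 other receptor and kinase genes (IFNGR1, IFNGR2, IFNLR1, IL10RB, JAK2 and JAK3), 0 passed with anastrozole or with E2, and IFNGR2, the signalling chain of the interferon gamma receptor, rose with the combination, from 46.4 ± 2.34 to 52.2 ± 2.2 CPM (log2 fold change 0.17 ± 0.06, edgeR adjusted p = 0.047). At an adjusted p under 0.05, 6.53% (anastrozole), 21.5% (E2) and 8.39% (combination) of the genes that averaged 3 log2 CPM or more passed. Counts of 0 or 1 in 6 genes are near these shares and so no result about the list. At an unadjusted p under 0.05, 0 of the 6 passed with anastrozole and 3 with E2. STAT6, which transmits IL-4 signals, fell with E2 (194 ± 5.19 to 179 ± 2.76 CPM, log2 fold change -0.12 ± 0.04, edgeR adjusted p = 0.014). STAT3, STAT4, STAT5A and STAT5B passed in 0 of the 3 comparisons with vehicle. Among the other IRFs, IRF5 rose with the combination (7.59 ± 1.33 to 9.93 ± 1.01 CPM, log2 fold change 0.39 ± 0.12, edgeR adjusted p = 0.033), although its libraries overlapped those of vehicle.

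Of 16 negative regulators (SOCS, CISH, PIAS and PTPN genes), 0 passed with anastrozole, where 2 passed at an unadjusted p under 0.05, and 3 passed with E2, a share near that of all abundant genes (21.5% of those that averaged 3 log2 CPM or more) and so no result about the list. SOCS4 (0.14 ± 0.05, edgeR adjusted p = 0.026) and PIAS2 (0.17 ± 0.05, edgeR adjusted p = 0.011) rose, and PIAS3, an inhibitor of STAT3, fell (-0.14 ± 0.04, edgeR adjusted p = 0.012). CISH, a cytokine-induced inhibitor of STAT5 signalling, was at 17.8 ± 1.06 CPM in vehicle, 15.6 ± 0.930 with anastrozole, 18.4 ± 0.437 with E2 and 22.1 ± 1.24 with the combination. It rose with the combination against vehicle (0.31 ± 0.09, edgeR adjusted p = 0.010), against E2 (0.27 ± 0.08, edgeR adjusted p = 0.016) and against anastrozole (0.51 ± 0.09, edgeR adjusted p = 1.3e-05). SOCS3, a direct inhibitor of JAK kinases, was at 1.81 ± 0.488 CPM with anastrozole and 3.31 ± 0.519 with the combination (0.86 ± 0.24, edgeR adjusted p = 0.017). PTPN11 fell when anastrozole was added to E2 (387 ± 6.44 to 358 ± 10.4 CPM, -0.11 ± 0.03, edgeR adjusted p = 0.010). Fold changes of abundant genes had a rank correlation with GC content of 0.69 for the combination against E2. Against anastrozole it was 0.57, and against vehicle -0.03. CISH (56.7% GC) and SOCS3 (60.0%) rose, and PTPN11 (43.8%) fell. The values of these genes with the GC trend removed are not given here.

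Of the 5 genes of the ISG15 conjugation system, which include USP18, ISG15 itself fell with each treatment, from 16.4 ± 1.73 CPM to 10.1 ± 1.41 with anastrozole (-0.72 ± 0.12, edgeR adjusted p = 4.8e-07), 12.3 ± 0.542 with E2 (-0.41 ± 0.10, edgeR adjusted p = 0.0017) and 13.2 ± 1.14 with the combination (-0.31 ± 0.10, edgeR adjusted p = 0.028). HERC5, its main ligase, rose with E2 (4.78 ± 0.384 to 6.38 ± 1.08 CPM, 0.43 ± 0.15, edgeR adjusted p = 0.041), and UBA7 and UBE2L6, the activating and conjugating enzymes, passed in 0 of the 3 comparisons with vehicle. Of 10 sensors and adaptors that induce interferon, 3 fell with anastrozole, 3 with E2 and 2 with the combination, and 0 rose, where 6.53%, 21.5% and 8.39% of the genes that averaged 3 log2 CPM or more were called in either direction. DHX58, a regulator of the RNA sensors, fell in all 3 comparisons (-0.32, -0.37 and -0.23), as did DDX58, which encodes the RNA sensor RIG-I (-0.27, -0.17 and -0.22). IFIH1, which encodes the sensor MDA5, fell with anastrozole (-0.32 ± 0.09, edgeR adjusted p = 0.015) and MAVS, the adaptor of both sensors, with E2 (-0.17 ± 0.04, edgeR adjusted p = 0.00019). TBK1, the kinase that activates IRF3 and IRF7, was lower with the combination than with E2 (-0.14 ± 0.04, edgeR adjusted p = 0.020). Its GC content was 38.0%, in a comparison where fold changes had a rank correlation of 0.69 with GC content. Its value with the GC trend removed is not given here.

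Interferon transcripts themselves were at the detection limit. Of 10 ligand genes, IFNA1, IFNA2, IFNE and IFNG had 0 counts in all 12 libraries and IFNB1, IFNK, IFNW1, IFNL1, IFNL2 and IFNL3 had 0 to 6 counts per library. A floor of 3 counts corresponds to 0.177 to 0.303 CPM in these libraries, so differences in these genes were not detectable at this depth. Of 24 ISGF3 target genes, 15 fell with anastrozole, 11 with E2 and 11 with the combination, and 0 rose. Called in either direction were 3.67%, 12.0% and 5.04% of all genes, and 6.53%, 21.5% and 8.39% of those that averaged 3 log2 CPM or more. The median log2 fold change of the 24 targets was -0.42, -0.27 and -0.31, and MX1, for example, was at 139 ± 3.39 CPM in vehicle and 79.5 ± 3.89, 91.1 ± 2.90 and 91.9 ± 4.06 in the treated groups.

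**Figure D4:**
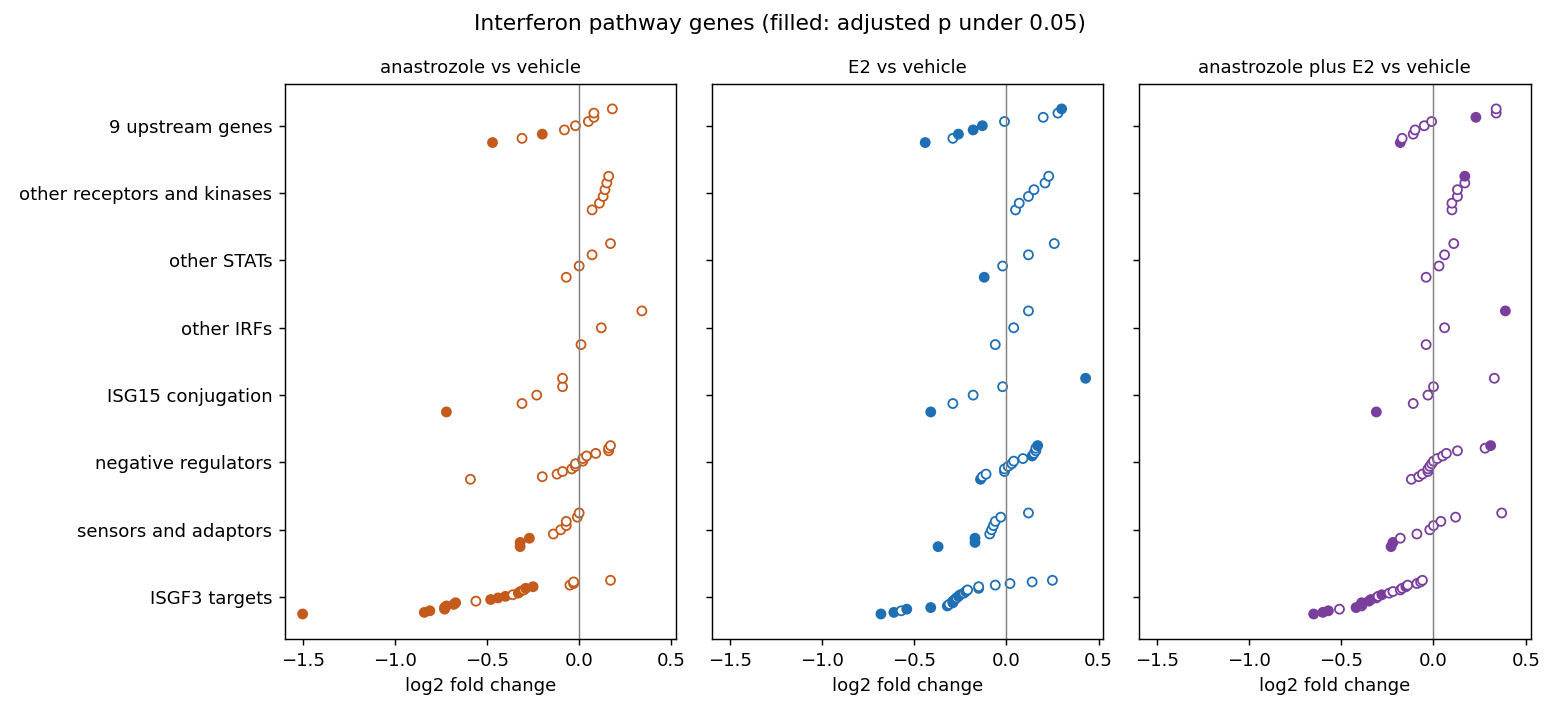
Log2 fold change against vehicle (x axis) of each gene in the pathway lists (rows) after anastrozole, E2 or both, for the genes reported here above 3 counts in all 12 libraries; filled points passed an adjusted p of 0.05, and USP18 and ISG15 each stand in 2 rows. The 9 upstream genes spread on both sides of 0, between -0.47 and 0.34, while the called ISGF3 targets all lie below 0.

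The genes whose pattern over the 12 libraries was most like that of a called member were found among 11012 others, as a description, since all points share the libraries and the trend with GC content. For JAK1 these were RBBP8 (Pearson r = 0.96), SCNN1B (0.95) and KLF6 (0.95). For IRF7 they were SLC38A10 (0.98), CLUH (0.98) and POLRMT (0.96), and for TYK2 they were PSD4 (0.94), MUC1 (0.94) and TLN1 (0.92). For IRF9 they were PLEKHM1 and SUMO3 (each 0.93), and for STAT2 they were PTGER4 (0.86), GALM (0.84) and LINC00885 (0.83). No member stood among the leading 3 of another. Between the 9 genes themselves, the highest r over the 12 libraries was 0.69, for IRF7 with USP18, followed by 0.61 for IRF9 with USP18, IRF9 with TYK2 and IFNAR2 with JAK1, and the lowest were -0.72 for JAK1 with IRF9, -0.68 for IRF9 with IRF1 and -0.63 for JAK1 with STAT2.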

How the data were processed

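The authors deposited a table of read counts per gene. Per the labels and the study's methods, single-end reads (also called paired-end in the same text) were aligned by TopHat2 2.0.14, using Bowtie2 2.2.6, on the hg19 genome and counted with htseq-count, whose version, annotation and strand setting are not given in the sources used here. Its 5 summary lines were left out of library sizes. The counts were used as deposited.

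After removal of genes without a count in any of the 12 libraries, 21132 of 25370 remained. Each pair of groups was fitted with edgeR 4.0.16 (TMM scaling, robust quasi-likelihood F test, two-sided) on its 6 libraries, and the interaction on all 12, with Benjamini-Hochberg adjustment over all genes and a threshold of 0.05. This replaced the voom model of the study's methods, which was kept as an alternative (limma 3.58.1), as was DESeq2 1.42.0, all in R 4.3.3. The fit was also run on simulated data, with an outcome that is not reported here. CPM were scaled over all 12 libraries. Levels per kilobase used the Ensembl canonical transcript of GENCODE v44 on GRCh37, and GC content came from the same annotation. It matched 21539 genes by symbol and 1498 by an older symbol. The GC trend was a lowess curve (span 0.5) over genes of at least 3 log2 CPM, entered as an offset. Libraries had 9914253 to 17009776 gene counts, so a floor of 3 counts equals 0.177 to 0.303 CPM. Intervals and floors cover counting error and the spread between libraries only.

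Groups were taken from the labels. The genes named are the 9 members, the genes of fixed pathway lists that passed in any pairwise comparison (at most 6 a list by smallest adjusted p), the 3 genes most correlated with each called member, and overlapping genes; some of these are not reported here. The members and lists were chosen with earlier results of these data known. Alternatives were other scaling factors, filters and tests, all libraries in 1 fit, the replicate letter as a block, the GC correction, thinning to 9914253 counts, and leaving out each library.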

Additional observations from a re-analysis of the deposited data

Results flagged for a closer look

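Each of the following genes had an anastrozole effect that differed with and without E2 by the interaction test (edgeR, Benjamini-Hochberg adjustment over all genes, where 10.9% of all genes passed), with values as the log2 effect in the presence of E2 minus that in its absence. Among the 9 upstream genes these were JAK1 (-0.15), TYK2 (0.24), IRF9 (0.28), IRF7 (0.74) and USP18 (0.49). Of the 16 negative regulators 4 passed, near the 19.9% of genes that averaged 3 log2 CPM or more, and so no result about the list. They were SOCS3 (0.98), CISH (0.47), SOCS4 (-0.25) and PIAS1 (-0.36). SOCS3 had the fewest reads of these, at 1.81 ± 0.488 to 3.31 ± 0.519 CPM by group. PIAS1 was at 35.3 ± 1.58 CPM in vehicle, 39.9 ± 2.38 with anastrozole, 39.2 ± 3.34 with E2 and 34.5 ± 1.42 with both. ISG15 was at 0.81 and the sensor DHX58 at 0.46. Among the ISGF3 targets with the smallest p-values, MX1 was at 0.82, IFI6 at 0.64 and IFIT1 at 0.73, where each treatment alone gave a fall and the combination gave no further fall beyond that of anastrozole. Over the genes that averaged 3 log2 CPM or more, the interaction had a rank correlation of 0.71 with GC content. With the GC trend removed it was 0.43 for IRF7, 0.53 for USP18, -0.15 for JAK1, 0.21 for IRF9 and 0.05 for TYK2, the last 2 no longer past the threshold. Interactions were positive for ISG15 (63.4% GC), SOCS3 (60.0%), CISH (56.7%), DHX58 (56.5%), IFI6 (56.3%), MX1 (49.3%) and IFIT1 (42.2%). They were negative for PIAS1 (43.0%) and SOCS4 (35.6%). The values of these genes with the GC trend removed are not given here.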

How the results depend on the processing

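The count of upstream genes past the threshold held within 1.5 times for anastrozole against E2 (1) under all alternatives and changed as follows elsewhere. For anastrozole against vehicle (2) it was 1 with library size alone, with filterByExpr, with genes of at least 3 log2 CPM, with the GC trend and replicate block together and after thinning, 0 with DESeq2 (which gave no adjusted p for IRF7), limma-voom or the GC trend removed, and 0 to 1 leaving out a library. For E2 (5) it was 3 with DESeq2 and 3 with limma-voom. For the combination against vehicle (2) it was 1 with DESeq2 and 1 with limma-voom, and 1 to 2 leaving out a library; after thinning it was 2, with IRF9 lost and IRF1 gained. For the combination against E2 (2) it was 1 with DESeq2 size factors or filterByExpr, 0 with DESeq2 (which gave no adjusted p for IRF7), limma-voom, all 12 libraries in the fit, the GC trend removed, the GC trend and replicate block together or thinning, and 0 to 1 leaving out a library. For the combination against anastrozole (1) it was 0 with limma-voom and 0 to 3 leaving out a library. For the interaction (5) it was 3 with DESeq2, the GC trend removed, the GC trend and replicate block together or thinning, and 2 to 5 leaving out a library. With the replicate block alone the counts were 2, 5, 3, 1, 2, 1 and 5 in the order anastrozole, E2 and combination against vehicle, anastrozole and combination against E2, combination against anastrozole, and interaction. IRF1 in the combination was the call gained (edgeR adjusted p = 0.048). Same-lettered deviations had correlations from -0.20 to 0.18. The labels do not say whether the letters pair the libraries, and these few correlations cannot decide it. In the comparisons with vehicle, signs of members reversed only where not called: in anastrozole against vehicle TYK2 was 0.022 with the GC trend removed and 0.023 with the block added, STAT2 0.005 and 0.002, IFNAR2 ranged from -0.027 to 0.233 and STAT2 from -0.060 to 0.023 leaving out a library; IFNAR1 with E2 was 0.004 after thinning and ranged from -0.023 to 0.017; TYK2 with the combination ranged from -0.032 to 0.011. Uncalled values also changed sign elsewhere, among them IRF7 in anastrozole against E2 (-0.18 to 0.09) and the interactions of IFNAR1 (-0.13 to 0.02), IFNAR2 (-0.18 to 0.10) and IRF1 (-0.16 to 0.04). Of 752 values of single members under alternatives, 633 kept direction and side of the threshold. This number includes values uncalled in the reported fit for which DESeq2 gave no adjusted p. Of 1031 values of the other named genes under alternatives, 809 kept both, 222 were weaker and 0 reversed. Over all genes anastrozole called 776, 238 with DESeq2, 15 with limma-voom and 611 with the GC trend removed (323 higher and 288 lower, against 296 and 480), and the combination against E2 called 1424, or 198 with the GC trend removed. Leaving out a library these counts ranged from 191 (without vehicle replicate c) to 1651 (without anastrozole replicate c) for anastrozole and from 885 (without E2 replicate c) to 1176 for the combination against E2. They ranged from 107 (without E2 replicate b) to 414, against 280 with all libraries, for anastrozole against E2, from 234 (without combination replicate c) to 1706 (without anastrozole replicate c), against 612, for the combination against anastrozole, and from 1535 to 3202, against 2295, for the interaction, so the shares of all genes called move with them. Where calls changed the cause was not tested, except that filters and left-out libraries test fewer genes or samples. IFNAR2, IRF1, USP18 and IRF7 rest on 60 to 278 counts per library, which limits the precision of their changes.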
